A study of Mus musculus with 2 samples.

Results

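The genes described here are those of oxidative phosphorylation, taken by their symbols: every gene whose symbol starts with Nduf, Uqcr, Sdh, Cox4i, Cox5, Cox6, Cox7, Cox8 or Atp5, and the protein-coding genes of the mitochondrial genome, whose symbols start with mt-. The rule gave 111 of the 32285 genes in the files, of which 98 are encoded in the nucleus and 13 in the mitochondrion. The 98 nuclear members lie on 19 chromosomes and comprise 86 subunit genes and 12 genes of assembly factors (the Ndufaf and Sdhaf genes). By complex, 37 nuclear members belong to complex I, 4 to complex II, 8 to complex III, 20 to complex IV and 17 to complex V, where Ndufa4 and its paralogue Ndufa4l2 were placed in complex IV. Of the mitochondrial members 7 belong to complex I, 1 to complex III, 3 to complex IV and 2 to complex V.

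Oxidative phosphorylation is carried out in the inner mitochondrial membrane. Complexes I and II pass electrons from NADH and succinate to ubiquinone, complex III passes them to cytochrome c, complex IV reduces oxygen, and complex V makes ATP with the proton gradient that complexes I, III and IV build up. Complex II is encoded wholly in the nucleus, whereas the other complexes join subunits translated in the cytosol with subunits translated inside the mitochondrion, so that the transcripts of a single machine come from a pair of genomes. A few subunits have paralogues that are expressed in particular tissues.

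Tumors grown in the omentum of female C57BL/6J mice of 12 to 16 weeks were collected at day 10 after the graft of KPCA cells, a mouse ovarian cancer line of fallopian tube epithelial origin whose genetic changes include mutant p53 and overexpressed Ccne1 and Akt2. The mice of one group received KPCA.FSTKO cells, in which Fst was knocked out. The other group received KPCA.FSTKO_hFSTL3, a single stable clone of KPCA.FSTKO cells transfected with a human FSTL3 plasmid, so that both groups lack Fst in the cancer cells and differ by the transgene and by the clone. For each group 4 tumors were pooled into 1 single-cell library, the libraries have no replicate, and no test between them or between classes of cells was made. All intervals given are exact 95% intervals and cover counting error only.

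Barcodes with more than 200 and fewer than 8000 detected genes were kept, 7327 of KPCA.FSTKO with 144560829 UMIs (unique molecular identifiers, 1 per captured transcript) and 4136 of KPCA.FSTKO_hFSTL3 with 70081855 UMIs, at medians of 15376 and 14793 UMIs per barcode. The libraries shared 11 kept barcode sequences. Fst, the targeted gene, had 533 UMIs in the cancer-gated barcodes of KPCA.FSTKO and 40 in those of KPCA.FSTKO_hFSTL3, or 5.32 and 6.65 CPM (UMIs per 1000000, here of non-mitochondrial UMIs), against 124 and 255 CPM in fibroblast-gated barcodes, and 3′ counts need not cover the edited part of the gene. Barcodes were assigned to a class when they passed exactly 1 of 12 marker lists. Those that passed only the fibroblast and pericyte lists together were assigned to pericytes. In KPCA.FSTKO this gave 3407 cancer, 860 macrophage, 391 fibroblast, 26 pericyte, 64 endothelial and 55 T/NK barcodes. In KPCA.FSTKO_hFSTL3 it gave 148 cancer, 96 macrophage, 46 fibroblast, 6 pericyte, 8 endothelial and 6 T/NK barcodes. The KPCA.FSTKO_hFSTL3 library stood apart, since 2630 of its barcodes (63.6%) passed 3 or more lists at once, against 36 in KPCA.FSTKO. Of these 2630 barcodes 99.8% passed the list of pancreatic acinar genes, 97.9% the erythroid, 96.8% the cancer, 91.0% the macrophage and 77.5% the fibroblast list. They are called mixed barcodes below and were kept apart from every class.

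Promoter sequences show what the nuclear members share on the DNA, and 81 of the 98 nuclear members had a RefSeq promoter on GRCm38.p6, here 300 bases that end a short way into the gene. A core of the site of NRF1, a transcription factor known for its targets among respiratory genes, GCATGCGC on either strand, was present in 12 of the 81 (14.8%) and in 2.80% of all 27025 promoters. The core CCGGAAG of GABPA, an Ets factor with the same reputation, was found in 21 (25.9%) against 9.12%. A core of the hypoxia-inducible factor site, ACGTG, was in 20 (24.7%) against 19.7%. A GCATGCGC match and a match of its reverse complement can overlap. Such matches describe letters and not bound sites. The promoters of 4 members that were more abundant in cancer-gated than in macrophage-gated barcodes in both libraries (below) are shown for comparison, 5′ to 3′ on the strand of the gene, with cores of NRF1 and GABPA in capitals. Ndufa4, the member with the largest ratio, lies at chr6:11907401-11907700 on the minus strand and holds neither core. Ndufa6 (chr15:82354242-82354541, minus strand) and Ndufaf4 (chr4:24897833-24898132, plus strand) hold the NRF1 core, the latter in 3 matches, and Ndufs8 (chr19:3912725-3913024, minus strand) holds the GABPA core.
Ndufa4: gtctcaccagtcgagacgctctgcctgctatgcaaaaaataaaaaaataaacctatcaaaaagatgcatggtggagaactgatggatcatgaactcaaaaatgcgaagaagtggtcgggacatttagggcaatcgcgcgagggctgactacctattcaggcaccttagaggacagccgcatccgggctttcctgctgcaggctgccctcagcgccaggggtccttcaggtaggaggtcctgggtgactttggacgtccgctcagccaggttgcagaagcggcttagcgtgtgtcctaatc
Ndufa6: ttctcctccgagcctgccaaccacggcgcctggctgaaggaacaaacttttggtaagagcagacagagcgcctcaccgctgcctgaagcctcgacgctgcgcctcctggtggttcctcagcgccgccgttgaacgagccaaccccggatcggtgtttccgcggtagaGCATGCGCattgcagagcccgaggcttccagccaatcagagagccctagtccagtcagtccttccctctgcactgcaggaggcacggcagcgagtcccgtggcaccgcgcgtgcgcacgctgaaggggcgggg
Ndufaf4: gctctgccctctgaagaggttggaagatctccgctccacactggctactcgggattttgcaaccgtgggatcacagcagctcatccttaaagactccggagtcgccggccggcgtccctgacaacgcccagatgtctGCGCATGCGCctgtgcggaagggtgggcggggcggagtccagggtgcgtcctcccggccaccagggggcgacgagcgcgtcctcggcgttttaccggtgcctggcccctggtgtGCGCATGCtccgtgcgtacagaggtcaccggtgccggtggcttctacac
Ndufs8: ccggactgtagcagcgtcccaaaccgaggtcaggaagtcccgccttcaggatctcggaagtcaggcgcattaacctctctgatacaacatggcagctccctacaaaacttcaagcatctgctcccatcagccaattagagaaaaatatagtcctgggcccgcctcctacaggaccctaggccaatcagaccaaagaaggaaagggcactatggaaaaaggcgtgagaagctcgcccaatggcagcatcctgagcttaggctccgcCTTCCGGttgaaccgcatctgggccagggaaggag

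Over all kept barcodes, nuclear members made up 1.95% (95% interval 1.94 to 1.95%) of the KPCA.FSTKO UMIs and 2.36% (2.36 to 2.37%) of those of KPCA.FSTKO_hFSTL3, whereas mitochondrial members made up 4.39% (4.39 to 4.39%) and 9.82% (9.82 to 9.83%). Thus there were 2.26 mitochondrial UMIs for each nuclear UMI of the family in KPCA.FSTKO and 4.16 in KPCA.FSTKO_hFSTL3. In the cancer, macrophage and fibroblast gates the mitochondrial share was not higher in KPCA.FSTKO_hFSTL3. In cancer-gated barcodes KPCA.FSTKO had a nuclear share of 2.07% (2.07 to 2.08%) and KPCA.FSTKO_hFSTL3 one of 2.14% (2.13 to 2.15%), and the mitochondrial share was 3.94% (3.94 to 3.95%) and 3.56% (3.55 to 3.58%). In macrophage-gated barcodes the nuclear share was 1.64% (1.64 to 1.65%) and 1.60% (1.58 to 1.62%), and the mitochondrial share was 4.22% (4.21 to 4.23%) and 3.72% (3.69 to 3.75%). In fibroblast-gated barcodes the nuclear share was 1.54% and 1.65%, and the mitochondrial share was 4.21% and 3.41%. Summed over barcodes, the mitochondrial share of KPCA.FSTKO_hFSTL3 was thus 0.904, 0.882 and 0.810 times the KPCA.FSTKO share in these 3 classes. The order held in the cancer and macrophage gates as medians over barcodes and after thinning each barcode to 1000 UMIs, but turned in the fibroblast gate, where the medians were 3.48% in KPCA.FSTKO and 3.91% in KPCA.FSTKO_hFSTL3 and the thinned shares 5.34% and 5.43%. The nuclear share of fibroblasts was 1.45% and 1.44% after thinning, so that neither share of the 46 fibroblast barcodes kept its direction.

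The mixed barcodes of KPCA.FSTKO_hFSTL3 held 53365885 of its 70081855 UMIs and had the largest nuclear share of its classes. Summed over all kept barcodes, their mitochondrial share lay below the 16.2% of the 378 barcodes that passed no list. It also lay below the 15.1% of the 287 acinar-gated barcodes of this library. Without barcodes at 20% or more mitochondrial UMIs this order turned, with 5.51% and 5.82% in these gates and 11.3% in mixed barcodes. It also turned as medians over barcodes, at 7.32%, 6.91% and 11.9%. The mixed barcodes stood at 11.3% mitochondrial and 2.48% nuclear UMIs of the family, each with an interval that rounds to the same value. The former is 3.18 times the mitochondrial share of the cancer-gated barcodes of the same library. Their spread was narrow, with quartiles of the mitochondrial share at 10.1%, 11.9% and 13.2% and of the nuclear share at 2.37%, 2.48% and 2.59%. The cancer-gated barcodes of KPCA.FSTKO_hFSTL3 spread more widely, with mitochondrial quartiles at 1.80%, 3.46% and 4.83% and nuclear quartiles at 1.78%, 2.18% and 2.74%. The 36 barcodes of KPCA.FSTKO that passed 3 or more lists stood at 5.27% mitochondrial and 1.77% nuclear UMIs. Acinar-list genes took 0.944% of the UMIs of the mixed barcodes of KPCA.FSTKO_hFSTL3 and 0.0334% of those of its cancer-gated barcodes. Erythroid-list genes took 0.364% and 0.00151%. The gates set these differences in part, since cancer-gated barcodes had to fail both lists and nearly all mixed barcodes passed them. What part acinar and erythroid cells have in the mitochondrial share was not tested.

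**Figure D1:**
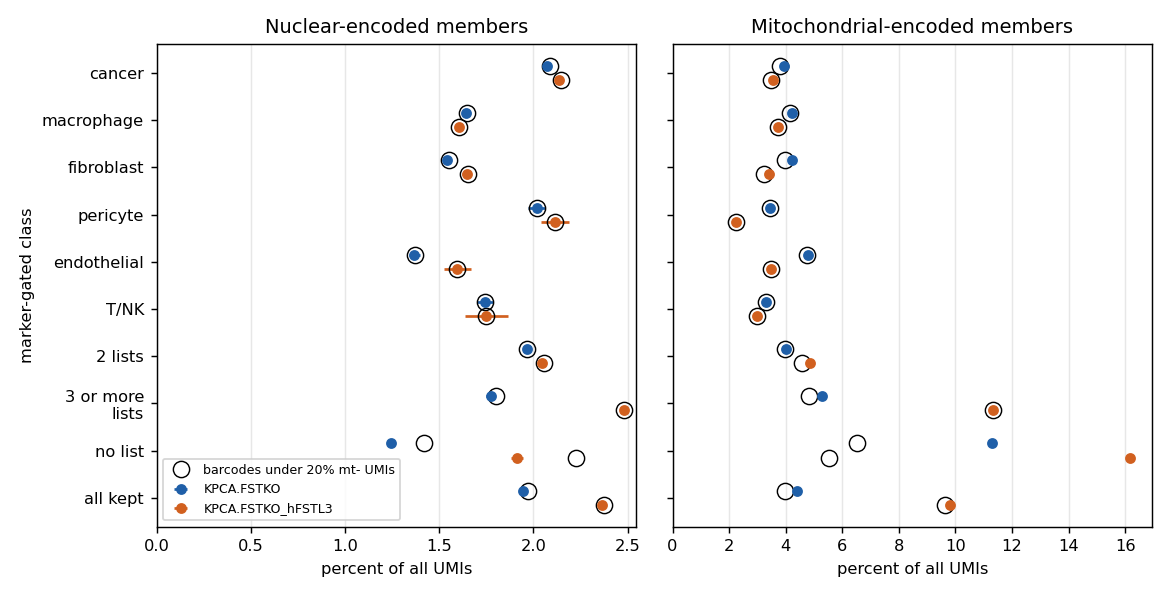
Percent of all UMIs in nuclear-encoded (left) and mitochondrial-encoded (right) members by marker-gated class, for KPCA.FSTKO (blue) and KPCA.FSTKO_hFSTL3 (orange), with exact 95% intervals of counting as bars and the value without barcodes at 20% or more mt- UMIs as open circles. On the right the 6 single classes drawn lie between 2.25% and 4.80%, the mixed barcodes of KPCA.FSTKO_hFSTL3 stand at 11.3%, and the barcodes that passed no list stand at 11.3% and 16.2%.

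The remaining classes of KPCA.FSTKO ranged widely. Pericyte-gated barcodes were close to the cancer gate, at 2.02% (1.97 to 2.06%) nuclear and 3.44% mitochondrial UMIs. T/NK-gated barcodes held 1.74% and 3.32%, endothelial 1.37% and 4.80%, neutrophil (113 barcodes) 1.02% and 1.98%, and B (20 barcodes) 0.988% and 3.24%. Erythroid-gated barcodes, in which the median share of the erythroid marker list was 86.6% of UMIs, held 0.437% nuclear and 0.694% mitochondrial UMIs. Endothelial barcodes thus had 3.51 mitochondrial UMIs for each nuclear one and erythroid barcodes 1.59. The erythroid-gated and acinar-gated barcodes of KPCA.FSTKO_hFSTL3 held the erythroid list at a median of 0.458% and the acinar list at a median of 2.52% (19.2% in KPCA.FSTKO), so these gates were not alike in the 2 libraries. Their mitochondrial shares were higher in KPCA.FSTKO_hFSTL3, at 6.15% in the erythroid and 15.1% in the acinar gate against 0.694% and 1.83% in KPCA.FSTKO, and the nuclear shares were 1.62% and 1.80% against 0.437% and 1.04%. Without barcodes at 20% or more mitochondrial UMIs the acinar gate of KPCA.FSTKO_hFSTL3 was at 5.82%.

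A share of 20% or more mitochondrial UMIs was found in 550 KPCA.FSTKO barcodes (7.51%) and 95 KPCA.FSTKO_hFSTL3 barcodes (2.30%). The 550 held 29.8% mitochondrial and 0.416% (0.408 to 0.424%) nuclear UMIs of the family, and the 95 held 53.9% and 0.553% (0.528 to 0.579%). A larger mitochondrial share leaves fewer other UMIs by construction, so nuclear members were also counted over the non-mitochondrial UMIs, where they made up 0.592% in the 550 barcodes and 2.04% in the whole KPCA.FSTKO library. Of the 550 barcodes 451 passed no list and 76 were cancer-gated. Of the 95 barcodes 48 passed no list, 37 were acinar-gated and 1 was mixed. Leaving all of them out gave 1.97% nuclear and 3.96% mitochondrial UMIs for KPCA.FSTKO and 2.37% and 9.61% for KPCA.FSTKO_hFSTL3, so that the difference between the libraries stayed.

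Over all kept barcodes of KPCA.FSTKO the nuclear share of non-mitochondrial UMIs stepped down with the mitochondrial share of a barcode. It went from 2.16% under 2% mitochondrial UMIs to 0.592% at 20% or more, but not every gate followed. In cancer-gated barcodes it was 2.35% (2.35 to 2.36%) under 2% mitochondrial UMIs (512 barcodes), 2.17% from 2 to 5% (2096 barcodes), 2.09% from 5 to 10% (597 barcodes), 1.14% (1.13 to 1.16%) from 10 to 20% (126 barcodes) and 0.480% (0.463 to 0.498%) at 20% or more (76 barcodes). Macrophage-gated barcodes went from 1.77% under 2% to 1.02% from 10 to 20%. Fibroblast-gated barcodes went from 1.63% under 2% and 1.71% from 2 to 5% to 0.588% from 10 to 20%. Barcodes that passed no list went from 1.83% under 2% to 0.553% from 10 to 20% and 0.647% at 20% or more. The acinar gate went the other way, from 0.916% in 14 barcodes under 2% to 1.74% in 2 barcodes from 10 to 20%. Over the same 5 bins of cancer-gated barcodes Malat1, a long noncoding RNA that stays in the nucleus, took 1.01%, 1.28%, 1.66%, 3.97% and 6.11% of the non-mitochondrial UMIs, while the median depth went from 23726.5 and 32598 UMIs in the lowest bins to 12571.5 and 8339 in the highest. The part of depth and of nuclear RNA in this pattern was not tested.

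In the mixed barcodes of KPCA.FSTKO_hFSTL3 the nuclear share did not fall between the bins from 5 to 10% and from 10 to 20%. Most of them (2000) lay between 10 and 20% mitochondrial UMIs, and there the nuclear share of non-mitochondrial UMIs was 2.86% (2.85 to 2.86%), above the 2.65% of the 565 mixed barcodes from 5 to 10%. Malat1 took 0.519% and 0.964% in these bins. At 10 to 20% mitochondrial UMIs the nuclear share was therefore 2.86% in mixed barcodes and 1.14% in the cancer-gated barcodes of KPCA.FSTKO, at median depths of 18137.5 and 12571.5 UMIs. Other barcodes of KPCA.FSTKO_hFSTL3 from 10 to 20% were also above 1.14%, at 2.27% (2.17 to 2.37%) in 53 acinar-gated barcodes, 2.09% (2.01 to 2.18%) in 84 that passed no list and 1.97% in 5 cancer-gated barcodes, whereas 4 macrophage-gated barcodes were at 1.02%. In KPCA.FSTKO the 293 barcodes of the bin that passed no list were at 0.553%. A filter at 20% removed 1 of the 2630 mixed barcodes.

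**Figure D2:**
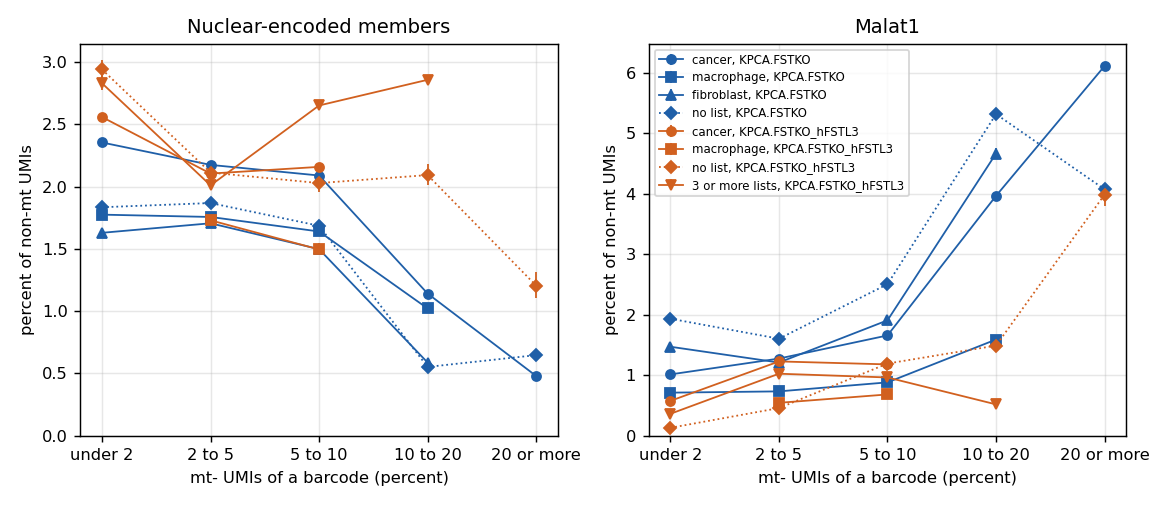
Nuclear-encoded members (left) and Malat1 (right) as a percent of non-mitochondrial UMIs, by bin of the mitochondrial share of a barcode, for classes of KPCA.FSTKO (blue) and KPCA.FSTKO_hFSTL3 (orange), in bins of at least 20 barcodes and with exact 95% intervals of counting. Blue cancer-gated points go from 2.35% down to 0.480% on the left and from 1.01% up to 6.11% on the right, and in the bin from 10 to 20% the orange mixed barcodes lie at 2.86% and the orange barcodes that passed no list at 2.09%.

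Among the mitochondrial members the cytochrome c oxidase transcripts mt-Co1, mt-Co2 and mt-Co3 (complex IV) took 55.0% of the mitochondrial UMIs of KPCA.FSTKO and 55.1% of those of KPCA.FSTKO_hFSTL3. The ATP synthase transcripts mt-Atp6 and mt-Atp8 took 17.5% and 21.7%, the 7 transcripts of complex I took 15.9% and 13.3%, and mt-Cytb, the only subunit of complex III encoded in the mitochondrion, took 11.6% and 9.94%. In the cancer gate mt-Co3 was the most abundant, at 0.811% of all UMIs for KPCA.FSTKO and 0.733% for KPCA.FSTKO_hFSTL3.

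Of the abundant transcripts mt-Cytb (mitochondrial genome, 14145 to 15288), whose product carries the hemes b of complex III, differed most between the cancer and macrophage gates. It took 12.7% (12.6 to 12.7%) of mitochondrial UMIs in cancer-gated and 6.34% (6.27 to 6.41%) in macrophage-gated barcodes of KPCA.FSTKO, and 13.9% (13.7 to 14.0%) and 7.82% (7.61 to 8.03%) in KPCA.FSTKO_hFSTL3. Over all UMIs this is a log2 ratio of cancer over macrophage of 0.90 and 0.76. T/NK barcodes were like macrophages in this measure, at 6.77% and 6.13%, and fibroblasts lay between, at 9.30% and 11.0%. mt-Co1 had the opposite order, at 15.1% and 13.5% of mitochondrial UMIs in the cancer gate and 20.5% and 17.7% in the macrophage gate, with log2 ratios over all UMIs of -0.54 and -0.46. The other abundant transcripts differed less between these gates, with mt-Co2 at log2 ratios of 0.01 and 0.02, mt-Co3 at -0.26 and -0.15 and mt-Atp6 at -0.26 and -0.07. Of the complex I transcripts mt-Nd5 was at 0.04 and -0.29, mt-Nd3 at -0.05 and -0.21, mt-Nd2 at -0.02 and -0.43 and mt-Nd4l at 0.21 and -0.22. The rarest, mt-Atp8 and mt-Nd6, were at -0.36 and -1.15 and at 0.01 and 0.31.

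Between libraries, all 13 mitochondrial members except mt-Nd6 (log2 ratio 0.14) were lower in the cancer gate of KPCA.FSTKO_hFSTL3 than in that of KPCA.FSTKO. The log2 ratios ran from -0.96 for mt-Nd4l to -0.01 for mt-Cytb and mt-Atp6. In the mixed barcodes all 13 were higher than in the cancer gate of the same library, but unequally. mt-Atp6 had the largest log2 ratio over all UMIs, 1.93, followed by mt-Co3 at 1.87, while mt-Cytb stood at 1.15, mt-Nd1 at 1.02 and mt-Nd6 at 0.49. As a share of mitochondrial UMIs, mt-Cytb was thus 9.69% in mixed and 13.9% in cancer-gated barcodes, and mt-Nd1 3.53% and 5.55%. mt-Nd6, the only member encoded on the light strand, was at 0.0388% and 0.0877%.

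**Figure D3:**
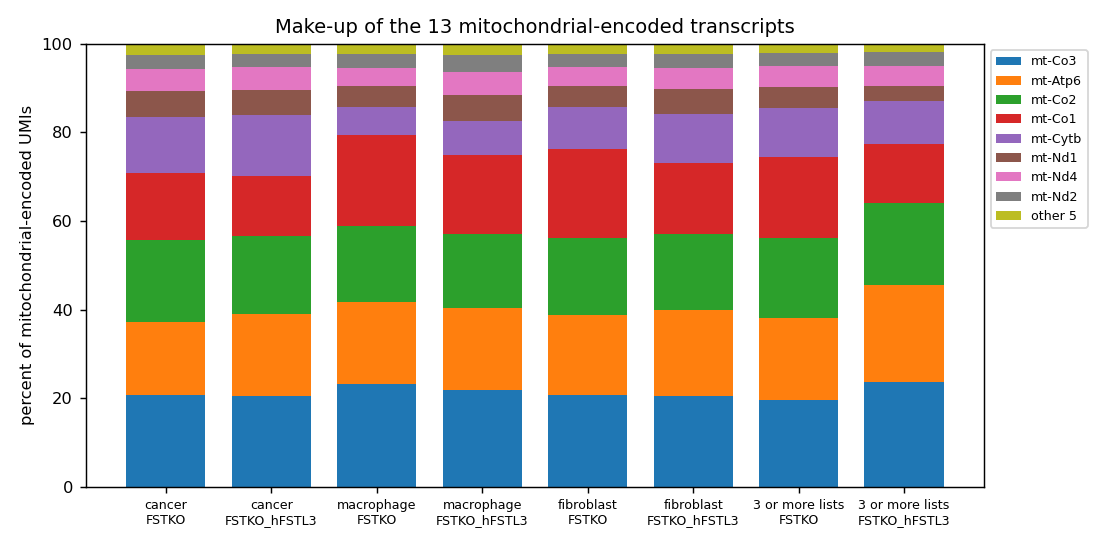
Make-up of the mitochondrial-encoded UMIs (percent, bars sum to 100) in 4 classes and both libraries, with the 5 rarest transcripts pooled. The purple segment of mt-Cytb is 12.7% and 13.9% in the cancer gate and 6.34% and 7.82% in the macrophage gate.

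Nuclear members were compared gene by gene on the scale of CPM over the non-mitochondrial UMIs of a gate where both gates together held at least 100 UMIs, and a ratio of at least 1.5 was named higher or lower as a description of size. The first comparison set the cancer gates of the 2 grafts side by side. In KPCA.FSTKO_hFSTL3 this gate holds 148 barcodes, while 2545 mixed barcodes that also passed the cancer list are left out. Its median depth was 42010.5 UMIs, against 28724 in KPCA.FSTKO. In cancer-gated barcodes 93 nuclear members could be compared, and their ratio was formed as KPCA.FSTKO_hFSTL3 over KPCA.FSTKO. The median on the log2 scale was -0.03 (quartiles -0.26 and 0.13), against 0.00 over all 12799 genes. By the size rule 5 members were higher and 4 lower, while 11.3% of all genes were higher and 14.6% lower. The summed nuclear members stood at 1.03 times (1.02 to 1.03) the KPCA.FSTKO level. Under the trimmed mean of M-values (TMM), with factors of 1.03 for KPCA.FSTKO_hFSTL3 and 0.968 for KPCA.FSTKO, 1 member was higher and 10 were lower.

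Sdha, the flavoprotein that oxidizes succinate in complex II, was at 52.4 CPM in KPCA.FSTKO and 79.8 CPM in KPCA.FSTKO_hFSTL3, a log2 ratio of 0.61 (0.47 to 0.74). Ndufs4, a subunit of the NADH-oxidizing arm of complex I, went from 97.9 to 152 CPM (0.63, 0.53 to 0.73). Atp5g2, which encodes the same mature c subunit of the ATP synthase rotor as Atp5g1 and Atp5g3, went from 540 to 846 CPM (0.65, 0.61 to 0.69). These values lie close to the size rule, whose limit on the log2 scale is 0.58.

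The assembly factor Ndufaf2 was at 44.1 and 69.1 CPM (0.65, 0.50 to 0.80), and Cox6a2, the heart and muscle form of a complex IV subunit, had 140 and 18 UMIs (1.10, 0.30 to 1.81). Lower was Cox7a2l, described as a supercomplex factor of complexes III and IV, at 615 and 400 CPM (-0.62, -0.68 to -0.56). The assembly factor Ndufaf7, a methyltransferase, was lower as well, at 32.7 and 18.3 CPM (-0.84, -1.13 to -0.57). Cox7a1 (699 and 26 UMIs, -0.69) and Ndufa4l2 (125 and 4 UMIs, -0.91, -2.81 to 0.48) were also below the limit at few UMIs. Thus the members past the rule came from different complexes, and 36 of the 37 complex I members lay within it.

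In macrophage-gated barcodes 88 members could be compared and none passed the size rule in either direction, where 9.95% of all genes were higher and 5.51% lower in KPCA.FSTKO_hFSTL3. Their log2 ratios ran from -0.58 to 0.58. In fibroblast-gated barcodes 87 could be compared, with no member higher and 2 lower, the assembly factors Ndufaf7 (124 and 9 UMIs) and Sdhaf4 (253 and 20 UMIs), against 6.16% and 12.3% of all genes. Ndufaf7 was thus below the limit in both the cancer and the fibroblast gates of KPCA.FSTKO_hFSTL3.

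The second comparison set cancer-gated against macrophage-gated barcodes within each library. The summed nuclear members were 1.26 times (1.25 to 1.26) as abundant in the cancer gate of the KPCA.FSTKO library and 1.33 times (1.31 to 1.35) as abundant in that of KPCA.FSTKO_hFSTL3. In KPCA.FSTKO 93 members could be compared, 26 were higher and 2 lower in the cancer gate, with a median log2 ratio of 0.37. Over all genes 43.8% were higher and 22.5% lower, with a median of 0.40. In KPCA.FSTKO_hFSTL3 86 could be compared, 23 were higher and 1 lower with a median of 0.39, against 37.6% and 25.1% of all genes and a median of 0.23. In neither library did the members past the limit make up a larger share of the members than of all genes. Of the 86 members compared in both libraries 70 (81.4%) had the same sign and 15 were higher by the rule in both. Over all 8118 genes compared in both, 7135 (87.9%) had the same sign and 2606 were higher in both, so the members did not share their direction more often than genes at large.

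The complexes did not move alike. Summed over its 37 nuclear members, complex I had a log2 ratio of cancer over macrophage of 0.53 (0.52 to 0.54) for KPCA.FSTKO and 0.55 (0.52 to 0.59) for KPCA.FSTKO_hFSTL3. Complex V stood at 0.30 and 0.45, complex IV at 0.26 and 0.30, and complex III at 0.04 and 0.29. Complex II was lower in the cancer gate, at -0.24 (-0.29 to -0.19) and -0.40 (-0.54 to -0.27). The 12 assembly factors of the family, summed, stood at 0.68 and 0.58.

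Among the complex I members higher by the rule in both libraries, Ndufv1, the subunit that binds NADH, was at 125 CPM in cancer-gated and 46.3 CPM in macrophage-gated barcodes of KPCA.FSTKO (log2 ratio 1.44) and at 83.8 CPM against 41.6 CPM in the other library (1.01). Ndufa7 was at 1.37 and 1.17, Ndufa6 at 1.04 and 1.14, Ndufb11 at 1.10 and 0.84, Ndufa12 at 0.88 and 1.02, and Ndufs8, which holds iron-sulfur clusters, at 0.93 and 0.71. Ndufab1, the acyl carrier protein that also serves mitochondrial fatty acid synthesis, was at 1.03 and 1.11. Ndufb9 was at 424 and 239 CPM in KPCA.FSTKO, a log2 ratio of 0.83 (0.77 to 0.88), and had 3630 and 323 UMIs in KPCA.FSTKO_hFSTL3, a log2 ratio of 1.59 (1.42 to 1.76).

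The ATP synthase subunits higher in both were Atp5j2 (1.23 and 0.98) and Atp5md (0.86 and 0.89). The rotor gene Atp5g2 (0.98) and the stalk gene Atp5f1 (1.15) passed the rule in KPCA.FSTKO_hFSTL3. The assembly factors higher in both were Ndufaf2 (1.15 and 1.48), Ndufaf4 (0.79 and 0.64), Ndufaf7 (1.54 and 0.63, the latter from -0.08 to 1.42) and Sdhaf4 (0.76 and 0.68). Ndufaf1 (1.29) and Ndufaf5 (1.21) were among the 10 largest ratios of KPCA.FSTKO. Of the 14 promoters available for these 15 members 2 held the NRF1 core, 2 the GABPA core and 10 neither.

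At the other end stood complex II and single members of the other complexes. Ndufa4l2 was lowest in KPCA.FSTKO, at a log2 ratio of -2.74 with 125 UMIs in the cancer and 92 in the macrophage gate. It and Sdhd were the 2 members lower by the rule there. In KPCA.FSTKO_hFSTL3 it had 4 and 9 UMIs, too few to be compared. Of the 8 nuclear members of complex III, 5 in KPCA.FSTKO and 6 in KPCA.FSTKO_hFSTL3 had positive log2 ratios. Sdhd, a membrane anchor of complex II, was at 65.3 CPM in the cancer and 103 CPM in the macrophage gate of KPCA.FSTKO (log2 ratio -0.66, -0.75 to -0.57) and at 75.9 CPM against 100.1 CPM in the other library (-0.40). Sdhc, the other anchor, was at -0.81 (-1.09 to -0.52) in KPCA.FSTKO_hFSTL3. Sdha was at -0.57 in KPCA.FSTKO and Sdhb at -0.31 in KPCA.FSTKO_hFSTL3. In KPCA.FSTKO 1 of the 4 complex II members had a positive ratio, at 0.24, and 1 was lower by the rule. In KPCA.FSTKO_hFSTL3 all 4 were negative, from -0.81 to -0.16, and 1 was lower by the rule. Uqcrh, the hinge protein of complex III, was at -0.35 and -0.50, and Uqcrb (-0.46) and Uqcrfs1, the Rieske iron-sulfur protein (-0.33), were among the 10 lowest of KPCA.FSTKO with Ndufb1-ps (-0.53), Ndufa3 (-0.42), Atp5a1 (-0.30) and Atp5l (-0.26). In KPCA.FSTKO_hFSTL3 Ndufb1-ps (-0.34), Ndufv3 (-0.38), Cox4i1 (-0.36), Ndufaf3 (-0.30), Ndufb7 (-0.28) and Ndufa9 (-0.19) were among the 10 lowest.

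**Figure D4:**
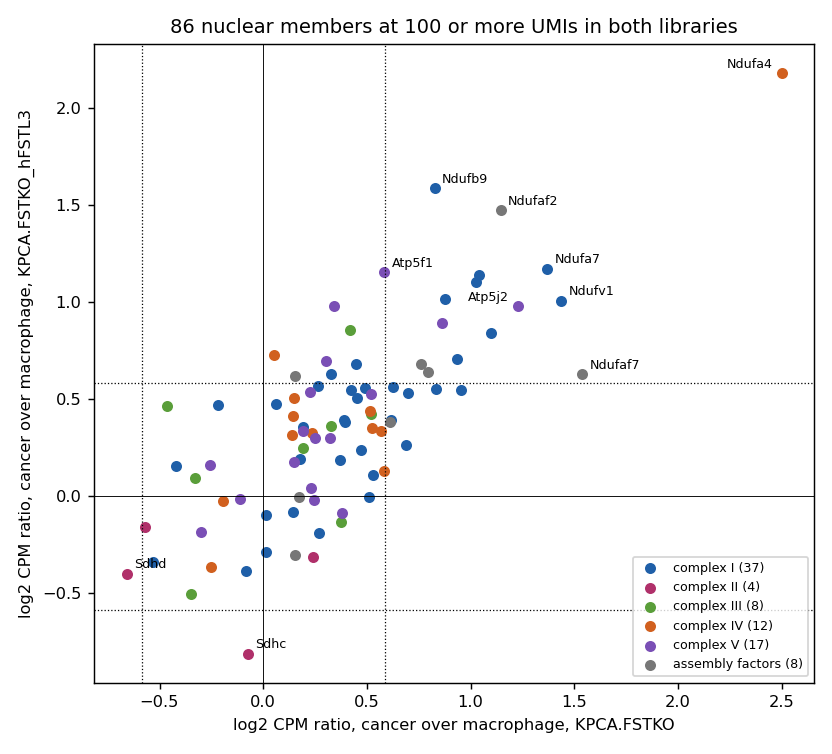
Log2 CPM ratio of cancer-gated over macrophage-gated barcodes of 86 nuclear members in KPCA.FSTKO (horizontal) and KPCA.FSTKO_hFSTL3 (vertical), coloured by complex, with dotted lines at a ratio of 1.5. Ndufa4 stands alone at 2.50 and 2.18, and the complex II member Sdhd lies at -0.66 and -0.40.

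Ndufa4 (ENSMUSG00000029632, chromosome 6 of GRCm38, 11900292 to 11907497), first ascribed to complex I and now known as a subunit of complex IV, had the largest ratio in both libraries. It had 38887 UMIs in the cancer gate and 755 in the macrophage gate of KPCA.FSTKO, and 1782 and 105 UMIs in KPCA.FSTKO_hFSTL3. In CPM over all UMIs, the scale used for the paralogues from here on, its level was 373 (369 to 377) and 65.7 (61.1 to 70.6) in KPCA.FSTKO and 286 (272 to 299) and 62.8 (51.4 to 76.1) in KPCA.FSTKO_hFSTL3. The log2 ratio was 2.50 (2.40 to 2.61) and 2.18 (1.90 to 2.48). A UMI of Ndufa4 was found in 93.5% of cancer-gated and 50.8% of macrophage-gated barcodes of KPCA.FSTKO. After thinning each barcode to 1000 UMIs, which left out 1 and 3 barcodes, it was found in 30.0% (28.4 to 31.5%) and 6.88% (5.28 to 8.79%). In KPCA.FSTKO_hFSTL3 the thinned shares were 21.1% (14.8 to 28.6%) and 3.12% (0.649 to 8.86%), and 91.9% and 56.2% before thinning.

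AA467197 (ENSMUSG00000033213, chromosome 2, 122636986 to 122641191), the mouse gene of NMES1, a protein related to Ndufa4 and known to take its place in complex IV of inflamed cells, lies outside the family and was looked up after the Ndufa4 values were seen. It had the opposite order, with 11545 UMIs or 1005 CPM (987 to 1023) of all UMIs in macrophage-gated and 46.5 CPM (45.2 to 47.8) in cancer-gated barcodes of KPCA.FSTKO. The KPCA.FSTKO_hFSTL3 values were 595 CPM (559 to 634) in macrophages and 177 CPM (167 to 188) in cancer cells. In macrophages it was thus more abundant than Ndufa4 in both libraries. It was at 39.0 and 189 CPM in fibroblast-gated barcodes and at 269 CPM in the mixed barcodes.

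Ndufa4l2 (ENSMUSG00000040280, chromosome 10, 127514967 to 127517154), the other paralogue of Ndufa4 and a gene known to be induced by low oxygen, was high in stromal cells. In pericyte-gated barcodes it had 409 UMIs in KPCA.FSTKO (1070 CPM, 969 to 1179) and 107 in KPCA.FSTKO_hFSTL3 (734 CPM, 602 to 888). Fibroblast-gated barcodes were at 362 CPM (348 to 377) and 360.2 CPM (324 to 399), macrophages at 8.01 and 5.39 CPM, and cancer-gated barcodes at 1.20 and 0.641 CPM. Ndufa4 was low in the same pericyte barcodes, with 22 and 16 UMIs (57.6 and 110 CPM). Of the UMIs of the pair, Ndufa4l2 thus held 94.9% (92.4 to 96.8%) and 87.0% (79.7 to 92.4%) in pericytes, 56.0% and 51.1% in fibroblasts, 10.9% and 7.89% in macrophages and 0.320% and 0.224% in cancer-gated barcodes.

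With 26 and 6 barcodes the pericyte gates are small. A UMI of Ndufa4l2 was found in 25 of 26 and 6 of 6 of them, and in 54.0% and 54.3% of fibroblast-gated barcodes. After thinning, the shares in KPCA.FSTKO were 57.7% (36.9 to 76.6%) in pericytes, 22.3% (18.2 to 26.7%) in fibroblasts and 0.176% in cancer-gated barcodes, at median depths of 13226.5, 16747 and 28724 UMIs. The level was also read by the number of pericyte markers a fibroblast-gated barcode held. It was 394 CPM (363 to 426) in the 122 KPCA.FSTKO barcodes that held no pericyte marker, 311 CPM in the 131 with 1, 375 CPM in the 93 with 2, and 408 CPM (369 to 450) in the 45 with 3 to 5. In KPCA.FSTKO_hFSTL3 the same 4 sets of 5 to 17 barcodes lay between 96.4 and 539 CPM without order. Fibroblasts that held no pericyte marker thus had the transcript in both libraries.

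Cox4i2 (ENSMUSG00000009876, chromosome 2, 152754173 to 152765037), the low-oxygen and lung form of the complex IV subunit Cox4, was narrower. Pericyte-gated barcodes held 109 UMIs in KPCA.FSTKO (285 CPM, 234 to 344) and 29 in KPCA.FSTKO_hFSTL3 (199 CPM, 133 to 286). Fibroblast-gated barcodes were at 11.9 and 2.98 CPM, macrophage-gated at 4.44 and 2.39 CPM and cancer-gated at 0.422 and 0.641 CPM. It was found in 21 of 26 and 5 of 6 pericyte barcodes. The common form Cox4i1 (chromosome 8, 120668222 to 120674207), the most abundant nuclear member of complex IV over both libraries, was at 1096 and 913 CPM in the same pericytes, so Cox4i2 added to it and held 20.6% (17.3 to 24.4%) and 17.9% (12.3 to 24.7%) of the pair. In fibroblasts its share of the pair was 1.61% and 0.471%.

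**Figure D5:**
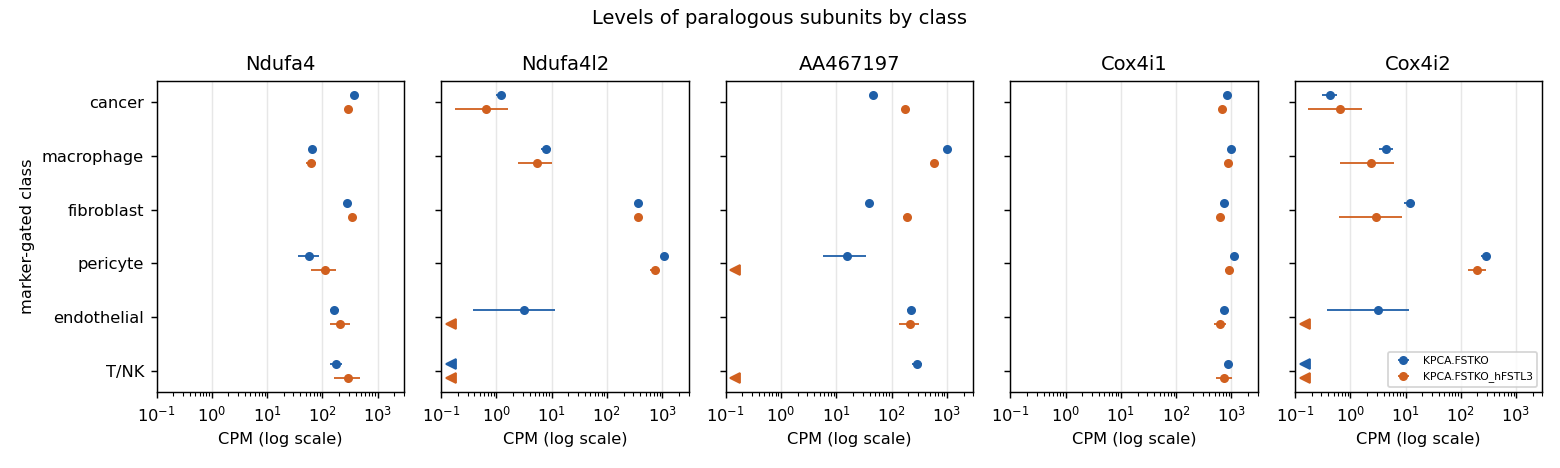
Level of Ndufa4, its paralogues Ndufa4l2 and AA467197, Cox4i1 and its paralogue Cox4i2, in CPM over all UMIs on a log axis, by class in KPCA.FSTKO (blue) and KPCA.FSTKO_hFSTL3 (orange), with exact 95% Poisson intervals of counting; arrowheads at the left edge mark gates with 0 UMIs. Ndufa4l2 and Cox4i2 are highest in pericytes (1070 and 734 CPM, and 285 and 199 CPM), and AA467197 in macrophages (1005 and 595 CPM).

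The other paralogues with restricted expression were rare. Cox6b2, the testis form of Cox6b, was highest in fibroblast-gated barcodes, with 86 and 13 UMIs or 4.35% (3.49 to 5.34%) and 4.02% (2.16 to 6.78%) of the Cox6b pair, against 4 UMIs in the KPCA.FSTKO cancer gate and 0 in that of KPCA.FSTKO_hFSTL3. Cox7a1, the muscle form of Cox7a, held 2.27% and 1.10% of its pair with Cox7a2 in cancer-gated, 2.10% and 2.31% in macrophage-gated and 0.833% and 0.418% in fibroblast-gated barcodes. Cox6a2 held 0.665% and 1.17% of its pair in the cancer gate. In the B gate it had 7 UMIs in 2 of 20 barcodes of KPCA.FSTKO and 6 UMIs in the single barcode of KPCA.FSTKO_hFSTL3, too few to set a level. Cox7b2 had 30 UMIs in both libraries together, Cox8b 3 and Cox8c 1.

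In the third comparison the mixed barcodes of KPCA.FSTKO_hFSTL3 were set against the cancer gate of the same library. The summed nuclear members were 1.26 times (1.25 to 1.27) as abundant per non-mitochondrial UMI. Of the 95 that could be compared 14 were higher and 0 lower, with a median log2 ratio of 0.29, where 16.8% of all genes were higher and 24.4% lower and the median was -0.16. The 14 were Ndufb2 (0.84), Ndufb4 (0.77), Ndufb7 (0.72) and Ndufa5 (0.61) of complex I, Uqcr11 (0.73) and Uqcrh (0.64) of complex III, Atp5e (0.80), Atp5o (0.73) and Atp5k (0.69) of complex V, and 5 of complex IV. Among the latter Cox4i1 stood at 1064 and 694 CPM, here over non-mitochondrial UMIs (0.62). The 4 other complex IV members were the paralogues Ndufa4l2 (1977 and 4 UMIs, 5.97), Cox4i2 (245 and 4 UMIs, 2.96), Cox7a1 (342 and 26 UMIs, 0.74) and Cox6b2 (121 and 0 UMIs, at least 5.13-fold higher when the 0 is set to 3 counts over the gate). Ndufa4l2 and Cox4i2 were highest in pericyte-gated barcodes (above), and 3 of the 2630 mixed barcodes passed the pericyte list. The fibroblast list took a median of 0.176% of the UMIs of a mixed barcode and 0.00811% in the cancer gate. The gates set this last difference in part, since cancer-gated barcodes had to fail the fibroblast list. The source of these transcripts in mixed barcodes was not tested.

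Summed over both libraries, the most abundant nuclear gene of each complex was Ndufb9 for complex I, Sdhb, the iron-sulfur subunit, for complex II, Uqcrq for complex III, Cox4i1 for complex IV and Atp5e for complex V. Uqcrq, Cox4i1 and Atp5e led in each library, while Ndufa7 led complex I in KPCA.FSTKO, with 58973 UMIs against 53457 of Ndufb9, and Sdhd led complex II in KPCA.FSTKO_hFSTL3, with 5185 against 4576 of Sdhb. In the cancer gates Uqcrq was at 428 and 622, Atp5e at 615 and 493 and Sdhb at 95.3 and 72.6 CPM in KPCA.FSTKO and KPCA.FSTKO_hFSTL3. Complex II as a whole took 1.36% of the nuclear UMIs of the family in the cancer gate of KPCA.FSTKO, against 32.4% for complex I, 29.7% for complex V, 26.6% for complex IV and 8.32% for complex III.

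Genes of oxidative phosphorylation outside the naming rule were read for comparison, beside the 43.8% of all genes that were higher and 22.5% lower in the cancer gate of KPCA.FSTKO, and 37.6% and 25.1% in that of KPCA.FSTKO_hFSTL3. Of 28 further assembly factors 16 were higher and 0 lower in the cancer than in the macrophage gate of KPCA.FSTKO, and of the 18 that could be compared in KPCA.FSTKO_hFSTL3 10 were higher and 0 lower. They include Surf1, Cox11 and Cox14 of complex IV, Timmdc1 and Tmem126a of complex I and Tmem70 of complex V, higher in both libraries. Of the electron carrier genes 5 of 14 were higher and 1 lower in KPCA.FSTKO and 5 of 11 higher and 3 lower in KPCA.FSTKO_hFSTL3, and among them Cycs, cytochrome c, Cyc1, Coq2 and Coq7 were higher in both, while Sqor was lower in both. Of 12 genes of the citric acid cycle 5 were higher and 2 lower in each, with Ogdh and Dlst lower in both. Of the genes of mitochondrial transcription and RNA handling 5 of 18 were higher and 1 lower in KPCA.FSTKO and 3 of 13 higher and 1 lower in KPCA.FSTKO_hFSTL3, and Tfam, which packages the mitochondrial genome, was higher in both. Of 14 glycolytic genes 1 was higher and 4 lower in KPCA.FSTKO and 4 were higher and 3 lower in KPCA.FSTKO_hFSTL3, with the glucose transporter Slc2a1 lower in the cancer gate of both. Among these 5 lists the further assembly factors alone had a larger share of higher genes than all genes in KPCA.FSTKO. In KPCA.FSTKO_hFSTL3 the electron carriers and the citric acid cycle genes were also above it, at 5 of 11 and 5 of 12.

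Between the cancer gates of the libraries, where 11.3% of all genes were higher and 14.6% lower in KPCA.FSTKO_hFSTL3, Ppargc1a, a coactivator of mitochondrial genes, was the only one of 17 genes of the transcription list below the limit in the cancer gate of KPCA.FSTKO_hFSTL3, at 21.8 CPM in KPCA.FSTKO and 13.8 CPM in KPCA.FSTKO_hFSTL3, and Polrmt and Mterf3 were above it. Of the other lists 2 of 28 further assembly factors were higher (Sco1, Cox14) and 2 lower (Cox20, Bcs1l), 2 of 14 electron carrier genes higher (Cyc1, Coq2) and 1 lower (Dhodh), and 2 of 14 glycolytic genes lower (Slc2a1, Eno1). In the mixed barcodes 7 of the 17 genes of the transcription list that could be compared were lower than in the cancer gate and 0 were higher, against 24.4% and 16.8% of all genes. They include Ppargc1a, at 2.03 and 13.8 CPM, and Lrpprc, which stabilizes mitochondrial messenger RNA, at 20.9 and 41.9 CPM. Malat1 was also lower there, at 0.633% and 1.07% of non-mitochondrial UMIs. Among the nuclear members 0 of 95 were lower, and all 13 mitochondrial transcripts were higher.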

How the data were processed

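Gene by barcode counts of UMIs, 1 matrix per library, were deposited by the authors as raw whole numbers, with no normalization. According to the study's methods and processing notes they came from Cell Ranger 3.1.0 with a mouse mm10 reference, while the matrix headers name 7.2.0. The methods keep barcodes with over 200 and under 8000 genes and under 20% mitochondrial UMIs. Here the limits on genes were applied, and the limit on mitochondrial UMIs only as an alternative.

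A marker counted as held at 2 or more UMIs, and a barcode passed a list when it held at least 1 in 3 of its markers (6 for pericytes). These minimums were set from the distributions of marker counts, before the members were summed by class. Doublets were not called. One driver mutation of the cell line and 1 gene of a comparison list are not reported here. Barcodes that passed more than 1 list were kept out of all classes, except that the fibroblast and pericyte lists together gave the pericyte class. A total of 12 barcode sequences were deposited in both libraries, and 11 were kept in both. Coordinates came from GENCODE on GRCm38 and promoters from RefSeq. A 3′ library counts captured ends, so levels were not divided by gene length, and reads of members with near-identical pseudogene copies can be split or lost.

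Shares have exact Clopper-Pearson intervals, levels exact Poisson intervals and ratios conditional binomial intervals, at 95%. They cover counting error only. A ratio of 1.5 at 100 or more UMIs in both gates together was a rule of size, not a test. Named were all 13 mitochondrial members, the pairs of common and restricted paralogues, the members past the rule or, beyond 20, the 10 largest and 10 smallest ratios, and the leading member of each complex. The members and lists were chosen with earlier results of these data known. Alternatives were the 20% limit, a stricter gate, medians over barcodes, other denominators, thinning to 1000 UMIs, a ratio of 2, a minimum of 20 UMIs, TMM scaling and a gate without the acinar list, the last chosen after seeing the data. Scripts were tested on simulated data and ran under Python 3.11.15 with scipy 1.17.1, numpy 2.4.6, matplotlib 3.10.9 and pandas 2.3.3, and with edgeR 4.0.16 in R 4.3.3 for the TMM factors alone.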

Additional observations from a re-analysis of the deposited data

Results flagged for a closer look

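A total of 4 mitochondrial transcripts of complex I had cancer over macrophage ratios of opposite sign in the libraries. In mt-Nd4l (0.21 and -0.22) and mt-Nd5 (0.04 and -0.29) the counting interval of 1 library held 0, and in mt-Nd1 and mt-Nd4 neither did. mt-Nd1 was at a log2 ratio over all UMIs of 0.19 in KPCA.FSTKO and -0.095 in KPCA.FSTKO_hFSTL3. mt-Nd4 was at 0.19 and -0.068. With 1 library per genotype the difference between these ratios was not tested.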

How the results depend on the processing

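No paired analysis was possible because there is 1 library per genotype, and for the same reason no replicate could be left out. Between libraries, the order of the fibroblast shares turned. The mitochondrial share was 4.21% in KPCA.FSTKO and 3.41% in KPCA.FSTKO_hFSTL3 as reported, 3.48% and 3.91% as medians and 5.34% and 5.43% after thinning, and the nuclear share was 1.54% and 1.65%, and 1.45% and 1.44% after thinning. The nuclear share of macrophages turned from 1.64% and 1.60% to 1.64% and 1.65% in the gate without the acinar list. Counting intervals are narrow, so many shares moved by more than their interval. The nuclear share, in percent and in the order cancer KPCA.FSTKO, cancer KPCA.FSTKO_hFSTL3, macrophage KPCA.FSTKO, macrophage KPCA.FSTKO_hFSTL3, was 2.07, 2.14, 1.64 and 1.60 as reported and 2.48 in mixed barcodes. It was 2.07, 2.18, 1.60 and 1.58 as medians over barcodes, 2.06, 2.25, 1.61 and 1.47 (mixed 2.45) after thinning, 2.02, 2.09, 1.60 and 1.56 (mixed 2.43) without assembly factors and pseudogenes, and 2.16, 2.22, 1.72 and 1.66 (mixed 2.80) over non-mitochondrial UMIs. The stricter gate gave 2.09 and 2.11 in the cancer gates, the 20% limit 2.09 in that of KPCA.FSTKO, the denominator without acinar genes 2.50 in mixed barcodes, and the gate without the acinar list 1.65 in macrophages of KPCA.FSTKO_hFSTL3. The mitochondrial share was 3.94, 3.56, 4.22 and 3.72 as reported and 11.3 in mixed barcodes. It was 3.62, 3.46, 3.95 and 3.83 (mixed 11.9) as medians and 4.52, 3.69, 4.67 and 4.40 (mixed 11.4) after thinning. The 20% limit gave 3.78, 3.49 and 4.15 in the first 3 of these, the stricter gate 3.81 and 4.18 in the KPCA.FSTKO gates, the denominator without acinar genes 11.4 in mixed barcodes, and the gate without the acinar list 3.72 and 3.99 in the KPCA.FSTKO_hFSTL3 gates, which then held 245 cancer and 158 macrophage barcodes. The causes were not tested. Members past the ratio numbered 9 between the cancer gates, 1 at a ratio of 2, 18 after thinning and 11 under TMM, of which 5 were among the 9. Between cancer and macrophage gates they numbered 28 in KPCA.FSTKO, 12 at a ratio of 2, and 24 in KPCA.FSTKO_hFSTL3, 9 at a ratio of 2 and 6 after thinning, where fewer UMIs remain. With 46 fibroblast and 6 pericyte barcodes in KPCA.FSTKO_hFSTL3, depth limits the rarer members there.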
